A study of Mus musculus with 24 samples.

Results

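The genes described here encode the Wnt ligands, their Frizzled receptors, the secreted antagonists that hold Wnt signals back and a few genes that Wnt signals act through. The members were named by family: 18 Wnt ligands, 10 Frizzled receptors, 8 secreted antagonists (Sfrp1, Sfrp2, Sfrp4, Sfrp5, Dkk1, Dkk2, Dkk3 and Wif1) and 4 target and response genes (Axin2, Lef1, Tcf7 and Lgr5). All 40 were found among 21887 protein-coding mouse genes of chromosomes 1 to 19, X and Y. Chromatin immunoprecipitation with sequencing (ChIP-seq) had been done in 4 cell lines grown from tumours of a mouse model of small cell lung cancer called RPP, which is engineered to lose the tumour suppressors Rb1, Trp53 and Rbl2. Lines 159-1 and 1014 came from sgControl RPP tumours, where the guide RNA leaves Kdm6a intact, and are called control lines, whereas 236L and 236R came from sgKdm6a RPP tumours and are called Kdm6a-mutant lines. All lines were at early passage, untreated, and were collected 24 h after plating in ultra-low attachment plates. H3K4me1, H3K4me2 and H3K27me3 were mapped in each line and KDM6A, the protein itself, in 159-1 and 1014, with 1 library for each, and the KDM6A cells had been crosslinked first with 2 mM disuccinimidyl glutarate (DSG). Whether 236L and 236R stem from different mice is not in the labels, so the spread between them may be that of 1 animal.

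Wnt ligands are lipid-modified secreted proteins that bind Frizzled receptors and LRP coreceptors on a neighbouring cell. In the canonical branch this stabilises beta-catenin, which enters the nucleus and switches on target genes together with LEF and TCF proteins, and in the lung the pathway is known for shaping the embryonic airway and for keeping alveolar stem cells. H3K4me2 is a mark of promoters and enhancers, H3K4me1 of enhancers, and H3K27me3 is the repressive mark of the Polycomb complex PRC2, which is often found on CpG-rich promoters of developmental genes. KDM6A removes methyl groups from H3K27 and is also a subunit of complexes that methylate H3K4.

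The files hold broad peaks, so the measure is length: the kb of a gene window (gene body with 10 kb on each side) that peaks of a library cover, or the same as a share of the window. Lists differed in length before any gene was looked at. H3K27me3 peaks covered 45.4 Mb in 159-1, 110.3 Mb in 1014, 13.8 Mb in 236L and 30.5 Mb in 236R, whereas H3K4me1 lists ranged from 109.2 to 134.6 Mb and H3K4me2 lists from 73.7 to 87.6 Mb. Read depth is unknown, and a shorter list can come from less depth or enrichment as well as from fewer marked sites. Neuroendocrine markers, which define this cancer, carried H3K4me2 in 12 of 12 genes in every line. The 236L libraries stood apart. These 12 genes summed to 59.2 kb of H3K4me2 in 236L against 99.3, 110.4 and 96.6 kb in 159-1, 1014 and 236R, and to 28.0 kb of H3K4me1 against 74.7, 86.6 and 91.6 kb. H3K27me3 peaks lay at 8 of 12 neuroendocrine markers there, against 0 in 159-1, 1 in 1014 and 0 in 236R, and 42.5% of the H3K27me3 cover of gene windows fell in H3K4me2 peaks, against 8.41%, 6.95% and 15.9%. The 12 macrophage markers summed to 110.7 kb of H3K4me2 in 236L against 30.2, 30.7 and 22.7 kb in 159-1, 1014 and 236R. Peaks of it lay at 12 of 12 of them in 236L, 10 in 159-1, 9 in 1014 and 8 in 236R. Ptprc and Adgre1 had 0 kb in both control lines. The part of these 236L features in the values below was not tested, and results are given with and without that line where it bears on them. The 2 control lists of H3K4me2 carry the name of the other line in their deposited names. They are given by sample label, and a comparison of the 2 groups is the same either way.

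The sequences just before 4 gene starts show the promoters of genes whose windows differed between the lines. They are the ligand Wnt4, the receptor Fzd1, the antagonist Dkk2 and the transcription factor gene Lef1, 1 for each role, and each reads 5′ to 3′ up to the annotated gene start, from RefSeq on GRCm38.p6, with CpG dinucleotides in capitals.
Wnt4, chr4:137277385-137277634, plus strand: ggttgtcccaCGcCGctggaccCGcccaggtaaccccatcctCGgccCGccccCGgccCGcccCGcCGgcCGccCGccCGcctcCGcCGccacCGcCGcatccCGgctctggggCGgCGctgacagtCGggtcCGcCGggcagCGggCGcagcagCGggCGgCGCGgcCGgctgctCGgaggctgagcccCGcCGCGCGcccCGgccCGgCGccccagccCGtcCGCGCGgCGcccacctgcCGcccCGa
Fzd1, chr5:4758217-4758466, minus strand: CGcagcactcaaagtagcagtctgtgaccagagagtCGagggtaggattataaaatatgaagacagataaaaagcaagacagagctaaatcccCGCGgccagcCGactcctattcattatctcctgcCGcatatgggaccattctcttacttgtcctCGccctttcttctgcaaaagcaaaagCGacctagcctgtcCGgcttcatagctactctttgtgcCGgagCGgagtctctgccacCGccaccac
Dkk2, chr3:132085042-132085265, plus strand: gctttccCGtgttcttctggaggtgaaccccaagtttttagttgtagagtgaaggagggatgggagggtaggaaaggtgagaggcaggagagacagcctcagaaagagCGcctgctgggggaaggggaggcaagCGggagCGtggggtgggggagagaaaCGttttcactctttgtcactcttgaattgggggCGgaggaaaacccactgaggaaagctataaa
Lef1, chr3:131110047-131110296, plus strand: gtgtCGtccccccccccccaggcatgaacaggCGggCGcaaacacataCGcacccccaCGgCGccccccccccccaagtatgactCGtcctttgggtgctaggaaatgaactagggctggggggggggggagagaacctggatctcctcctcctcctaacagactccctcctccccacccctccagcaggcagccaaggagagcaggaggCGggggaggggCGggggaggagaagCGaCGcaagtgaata
The Wnt4 start lay in H3K4me1 and H3K4me2 peaks in all 4 lines and in H3K27me3 in 1014 only. The H3K4me1 peak over it ran from -1.87 to 3.32 kb in 159-1 and from -1.84 to 5.81 kb in 1014. In 236L it ran from -1.08 to 0.473 kb and in 236R from -1.70 to 2.68 kb. H3K27me3 peaks began 0.046 kb past the start in 236L and 0.175 kb past it in 236R. Control lines had H3K27me3 there too, from 0.315 to 1.11 kb in 159-1 and from -4.36 to 1.35 kb in 1014. Of the differences of its window described below, that of H3K4me1 was also called around the gene ends. Those of H3K4me2 and H3K27me3 were not. The Fzd1 start lay in H3K27me3 in both control lines and neither mutant line, and the Lef1 start in all lines but 236R. The Dkk2 start lay in H3K4me2 in the mutant lines only. The Wnt4 stretch holds 44 CpGs in 250 bases, the Fzd1 stretch 12 and the Lef1 stretch 11. The Dkk2 stretch holds 6 in 224 bases. The median over 21263 promoters of protein-coding genes was 10 per 250 bases. Promoter entries were matched for 29 of the 40 members, with 36 starts, and their median was 20.5. The 18 ligand starts had a median of 22.5, the 6 receptor starts 28.5 and the 5 antagonist starts 13, so Dkk2, Lef1 and Fzd1 lie below the members' median and Wnt4 well above it.

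Ligands carried H3K27me3 over a larger share of their windows than receptors did, by an amount that differed widely between the control lines. In 1014 peaks covered over 50% of the window at 8 of 18 ligands, and in 159-1 at 1 of 18, with no peak at 4. Of the receptors 6 of 10 had no peak in either control line. The mean share of the window under H3K27me3 was 19.3% in 159-1 and 48.5% in 1014 for the 18 ligands, and 13.3% and 15.7% for the 10 receptors. In 236L and 236R the ligand means were 21.6% and 21.4% and the receptor means 5.34% and 7.05%. The ligand mean thus exceeded the receptor mean in all 4 lines, by 5.92, 32.7, 16.3 and 14.4 percentage points in the order 159-1, 1014, 236L, 236R. Averaged by group, the gap was 19.3 ± 18.9 points in control lines and 15.3 ± 1.35 points in mutant lines (SD, n = 2 lines each), and the 2 groups of lines overlapped. Medians differed in the same direction, with receptor medians of 0%, 0%, 0% and 1.89% against ligand medians of 10.7%, 46.4%, 20.4% and 14.2%. Over all protein-coding genes the median was 0% in every line. Genes are not replicates, so these gaps describe the 2 gene families in each library and carry no p-value. Ligand windows are also longer, with a median of 44.8 kb against 24.6 kb, and 4 ligand pairs lie side by side and share part of a window (Wnt1 with Wnt10b, Wnt3 with Wnt9b, Wnt3a with Wnt9a, Wnt6 with Wnt10a). With such neighbours merged to 14 loci the control gap was 15.7 points. With all 4 lists reduced to the length of the shortest it was 4.05 ± 13.3 points, and at a -log10 q of at least 3 it was 11.3 ± 22.8 points (SD, n = 2 lines each), so its size rests on 1014, which has the longest list. Under both of these settings the gaps of the 2 control lines differed in sign.

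**Figure D1:**
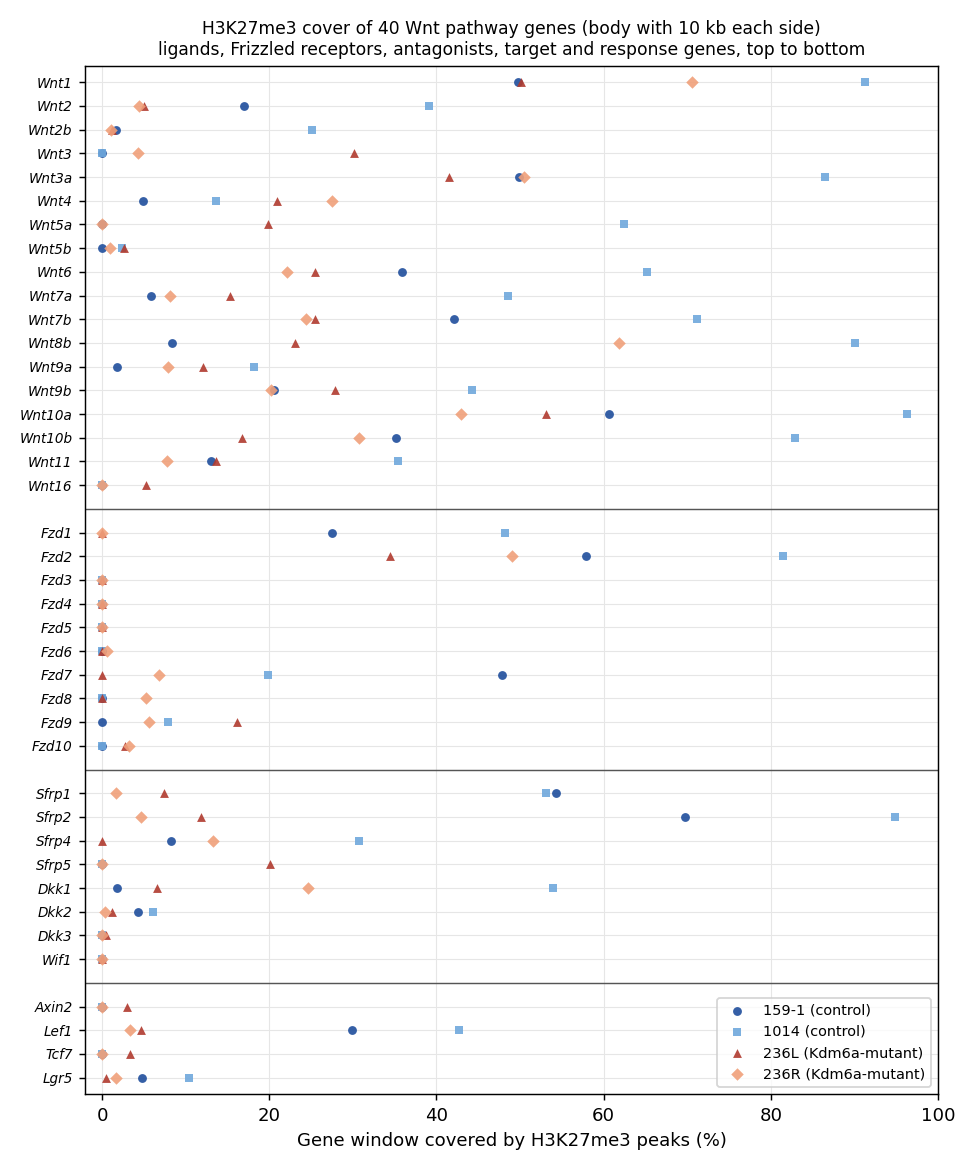
Share of each gene window (horizontal axis, %) covered by H3K27me3 peaks for 40 genes, with 1 symbol per line, blue for control and red for Kdm6a-mutant lines, grouped by role from ligands at the top to target and response genes at the bottom. Most ligands lie well to the right of 0 in 1014, while Fzd3, Fzd4, Fzd5 and Wif1 sit at 0 in every line; Sfrp1, Sfrp2 and Lef1 show blue symbols far to the right of red ones.

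Among ligands, Wnt10a carried the widest control share of H3K27me3, at 60.7% in 159-1 and 96.3% in 1014, against 53.1% in 236L and 42.9% in 236R. Wnt1, which patterns the midbrain, followed with 49.8%, 91.3%, 50.1% and 70.6% in the same order, and its mutant values lay within the control range. Wnt3 and Wnt16 lay at the other end with 0% in both control lines. Wnt5a, the classic noncanonical ligand, had 0% in 159-1, 62.5% in 1014, 19.8% in 236L and 0% in 236R, so that the lines of each genotype differed widely. Among receptors, Fzd2 stood at 57.9% and 81.4% in control lines and 34.5% and 49.1% in mutant lines. Fzd3, Fzd4 and Fzd5 had no H3K27me3 peak in any line, and Fzd6, Fzd8 and Fzd10 had none in control lines. The antagonists were split as well. Sfrp2 had 69.7% and 94.8% in control lines, while Wif1, which binds Wnt ligands outside the cell, had 0% in all 4 lines and Sfrp5 and Dkk3 had 0% in both control lines. Axin2, a widely used target gene of beta-catenin and a brake on it, had 0% in 159-1, 1014 and 236R and 2.94% in 236L.

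The families were compared in H3K4 methylation in the same way. For H3K4me1 the ligand mean exceeded the receptor mean by 9.47 points in 159-1, 5.81 in 1014 and 4.18 in 236R, and lay 4.24 points below it in 236L. In 159-1 this gap was larger than that of H3K27me3, and in the other 3 lines smaller. The H3K4me2 means of 11.6% to 13.3% for ligands and 12.2% to 14.5% for receptors overlapped, with differences of -1.60, 0.873, -2.94 and 0.528 points in 159-1, 1014, 236L and 236R. Medians of both families, 9.59% to 12.7% for ligands and 10.7% to 14.7% for receptors, lay above those of all genes, 6.08% to 6.67%. Wnt4 had the widest control share of H3K4me1 among ligands, at 57.0% in 159-1 and 48.8% in 1014, and Wnt8b had none in either. For H3K4me2 the highest and lowest ligands by their control mean were Wnt10a, at 26.6%, 29.0%, 25.1% and 28.7%, and Wnt2, at 0.982%, 1.41%, 3.69% and 3.49%. Fzd10 had the highest control mean of the receptors in both marks, with 26.2%, 39.0%, 5.44% and 30.7% of H3K4me1 and 24.4%, 18.0%, 12.4% and 16.0% of H3K4me2. Fzd3 had the lowest control mean in both, with 1.25%, 1.08%, 1.01% and 3.20% of H3K4me1 and 4.65%, 5.85%, 4.20% and 5.43% of H3K4me2. In 236L Fzd7 was the highest receptor in both marks, at 62.1% and 37.9%. Among antagonists Sfrp5 was wide in H3K4me1 in 3 lines, at 43.5%, 84.6% and 65.7% in 159-1, 1014 and 236R, and narrow in 236L at 4.26%. Its H3K4me2 shares were 24.8%, 8.38%, 3.25% and 7.22%. Dkk1, which blocks the LRP coreceptors, had neither H3K4 mark in control lines. Of the target and response genes, Lgr5 had the smallest share of its window under H3K4me1 in every line, 2.97% in 159-1, 1.42% in 1014, 0% in 236L and 2.25% in 236R. Its H3K4me2 shares were 2.98%, 2.83%, 2.06% and 3.26% in the same order, the smallest of the 4 genes in every line but 236R.

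**Figure D2:**
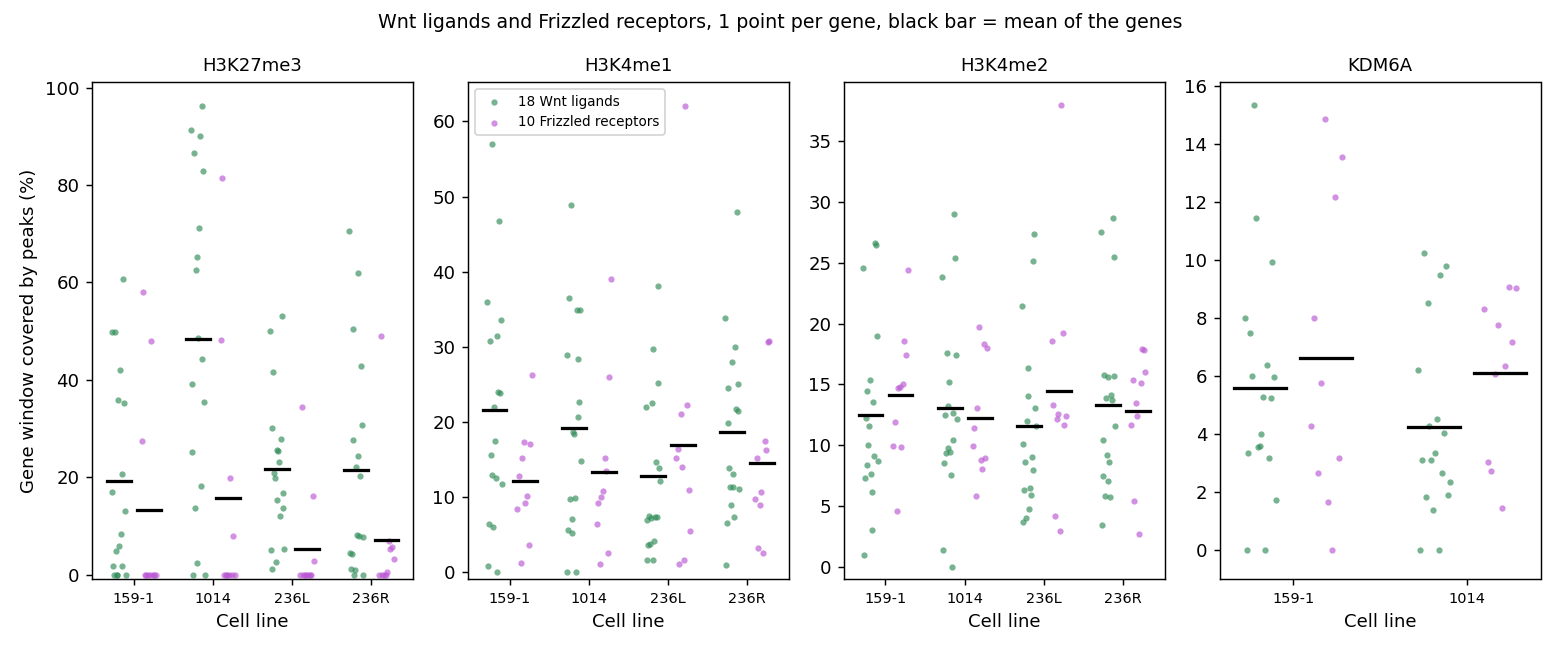
Share of the gene window covered by peaks (vertical axis, %, each panel with its own scale) for 18 Wnt ligands (green) and 10 Frizzled receptors (purple) in each line, with 1 panel per target and a black bar at the mean. The bars stand apart in the H3K27me3 panel in every line, most in 1014 (48.5% against 15.7%), and are close in the H3K4me2 and KDM6A panels.

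KDM6A peaks lay in the windows of 31 of 40 members in both control lines, against 62.3% of all genes. They were at 16 of 18 ligands (all but Wnt2 and Wnt8b), 9 of 10 receptors (all but Fzd7, which had a peak in 1014 only), 3 of 8 antagonists (Sfrp4, Sfrp5 and Wif1) and 3 of 4 target and response genes (all but Lgr5). Sfrp1, Sfrp2, Dkk1, Dkk2 and Dkk3 had no KDM6A peak in either line. By the mean of both lines Wnt4 carried the most of the ligands, 15.3% of its window in 159-1 and 8.51% in 1014. By the same mean Fzd5 led the receptors with 14.8% and 7.78%, and Fzd6 had the least of those with a peak in both lines, 1.67% and 1.45%. Sfrp5 led the antagonists with 6.13% and 18.7%, and Axin2 the target genes with 6.59% and 5.84%. The ligand mean was below the receptor mean by 1.03 points in 159-1 and 1.84 in 1014, a gap of -1.43 ± 0.572 points (SD, n = 2 lines) that turned to 0.875 points when 50 kb on each side of the genes was taken. Of the KDM6A cover of the 40 windows, 77.6% lay in H3K4me2 peaks of the same line in 159-1 and 79.5% in 1014, against 81.9% and 86.8% over all genes. With the 2 H3K4me2 control lists exchanged the mean of the 2 lines went from 78.6% to 82.4%.

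H3K4me2 and H3K27me3 lay on the same stretches at many of these genes. Of the H3K4me2 cover of the 40 windows, 25.8% lay in H3K27me3 peaks in 159-1, 41.8% in 1014, 42.8% in 236L and 32.0% in 236R, where all gene windows gave 2.86%, 5.35%, 6.77% and 4.60%. Ligands had higher values than receptors in each line, at 29.6%, 52.4%, 57.5% and 39.2% against 20.5%, 16.4%, 10.1% and 21.9%. Taken the other way, the share of H3K27me3 cover inside H3K4me2 peaks was lower for ligands in each line. It was 19.4%, 14.1%, 30.7% and 26.0% against 25.4%, 15.7%, 31.6% and 45.9% for receptors. For the 40 members this share was 16.1%, 12.6%, 34.1% and 29.5%, against 8.41%, 6.95%, 42.5% and 15.9% over all genes. KDM6A cover overlapped H3K27me3 as well: 21.0% of it in 159-1 and 29.6% in 1014, against 2.48% and 3.34% over all genes. The share of H3K27me3 cover inside KDM6A peaks was 5.62% and 3.31%, against 2.82% and 1.39%. H3K27me3 itself covered 14.2%, 28.5%, 10.6% and 9.71% of the summed length of the 40 windows in the 4 lines. For all gene windows it covered 2.30%, 5.19%, 1.01% and 1.69%. The part of this cover in the overlaps was not tested. Of the members, 24 of 40 had an H3K27me3 peak in both control lines, against 19.4% of all genes. At the gene start itself, H3K27me3 covered 7 of 18 annotated starts of 15 ligand genes in 159-1 and 12 of 18 in 1014, against 6.83% and 10.9% of all starts. The marks can come from different cells of a culture, which these lists do not tell apart.

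The 2 genotypes were compared as 2 lines against 2. A member was called where both lines of a genotype lay above both lines of the other genotype, with a gap of 2 kb or more. This comparison has 3 splits of the lines, so an exact two-sided permutation test cannot give a p below 0.333 for any single gene, and calls are descriptions of these 4 lines. By this rule 22 of 40 members differed in at least 1 mark, against 21.3% of all genes. H3K27me3 gave most of them: 12 members had less in mutant lines, against 6.43% of all genes, and 2 had more, against 0.425%. Since a gene needs H3K27me3 in control lines to have less, the count is also set among the 24 members with a peak in both of them, where 12 had less against 33.2% of all such genes. These were 4 of 14 ligands, 3 of 3 receptors, 3 of 5 antagonists and 2 of 2 target and response genes. A gene with a peak still needs 2 kb or more in each control line to be called with less. The comparison thus does not level the length of control cover, whose part was not tested. The mean change in share was -12.1 points over the 40 members (median -7.56) and -2.62 points over all genes (median 0). The members started from a higher share, and points do not give the loss in proportion to it. In 159-1, 1014, 236L and 236R the mean share was 16.3%, 33.0%, 12.5% and 12.6% over the members. Over all genes it was 3.16%, 6.43%, 1.68% and 2.67%. The H3K27me3 lists of the mutant lines are also the shorter ones. When all 4 lists were reduced to the length of the shortest by dropping their lowest folds, 6 members had less (Fzd1, Fzd2, Sfrp1, Sfrp2, Lef1 and Lgr5; 1.37% of all genes) and 4 others had more (Wnt3a, Wnt7a, Wnt8b and Wnt9a; 0.9%), so that none of the 4 ligand calls with less remained.

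The receptors with less H3K27me3 were Fzd1, Fzd2 and Fzd7. Fzd1 (chr5:4753839-4758216) had 6.71 kb of H3K27me3 in 159-1 and 11.8 kb in 1014, and 0 kb in both mutant lines. A peak at chr5:4753252-4761207 covered the whole gene in 1014. The promoter printed above lay in it, and its H3K4me2 peak was present in all 4 lines at 2.42, 2.42, 4.53 and 2.84 kb. Fzd7 (chr1:59482147-59486955) had 11.9, 4.93, 0 and 1.71 kb of H3K27me3 in 159-1, 1014, 236L and 236R. Its H3K4me2 was 3.73, 2.00, 9.40 and 3.75 kb, with 236L high, 1014 low and the other 2 lines nearly equal. Fzd2 (chr11:102604431-102608058) had 13.7, 19.2, 8.15 and 11.6 kb, a narrower separation. It was not called when H3K27me3 inside H3K4me2 peaks was left out.

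Sfrp1 and Sfrp2, which encode secreted proteins with a Frizzled-like domain that bind Wnt ligands, had larger control domains and larger differences. Sfrp1 (chr8:23411383-23449632) had 31.7 kb in 159-1, 30.9 kb in 1014, 4.30 kb in 236L and 0.969 kb in 236R, so the control lines agreed closely and the mutant lines lay far below. What remained in 236L was a single peak of 4.30 kb around the gene start, chr8:23409809-23414112. Sfrp2 (chr3:83765750-83774314) had 19.9 and 27.1 kb in control lines, where a domain of 12.5 kb in 159-1 and 16.2 kb in 1014 ran over the gene start, and 3.39 and 1.32 kb in mutant lines. H3K4me2 at Sfrp1 was 0.872, 1.04, 2.16 and 1.76 kb and at Sfrp2 2.31, 2.13, 2.79 and 3.42 kb. The mutant values were the higher ones at both genes but by less than 2 kb. Neither gene had a KDM6A peak in the control lines.

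Dkk2 (chr3:132085266-132180304), a modulator of the LRP coreceptors, differed in both directions. H3K27me3 at the gene measured 5.00, 6.98, 1.42 and 0.432 kb in 159-1, 1014, 236L and 236R. H3K4me2 measured 0.964, 0.811, 5.38 and 4.58 kb, and this was the single member with more H3K4me2, against 1.36% of all genes. The difference was at the gene start, where mutant lines had peaks at chr3:132084022-132087652 (236L) and chr3:132083955-132087514 (236R). The control lines had no H3K4me2 there and only a small peak inside the gene, chr3:132103001-132103964 in 159-1. H3K4me1 was found at Dkk2 in 236L alone, at 7.52 kb. Dkk2 and Wnt6 were the 2 members with more H3K4 methylation and less H3K27me3, against 1.04% of all genes. The H3K27me3 calls of both fell away at equal list length and at a -log10 q of at least 3.

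Among target and response genes Lef1 and Lgr5 had less H3K27me3. Lef1 (chr3:131110297-131224357), a partner of beta-catenin on DNA, had 40.1 kb in 159-1 and 57.3 kb in 1014 but 6.20 kb in 236L and 4.43 kb in 236R. The domain at its start was 24.8 kb long in 1014 and 3.74 kb in 236L. H3K4me2 at Lef1 lay between 3.96 and 6.47 kb in the 4 lines and the 2 groups overlapped. Lgr5, a receptor for R-spondins and a stem cell marker, had 7.62, 16.4, 0.762 and 2.56 kb. Axin2 and Tcf7 had no H3K27me3 in control lines and could not be called with less.

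**Figure D3:**
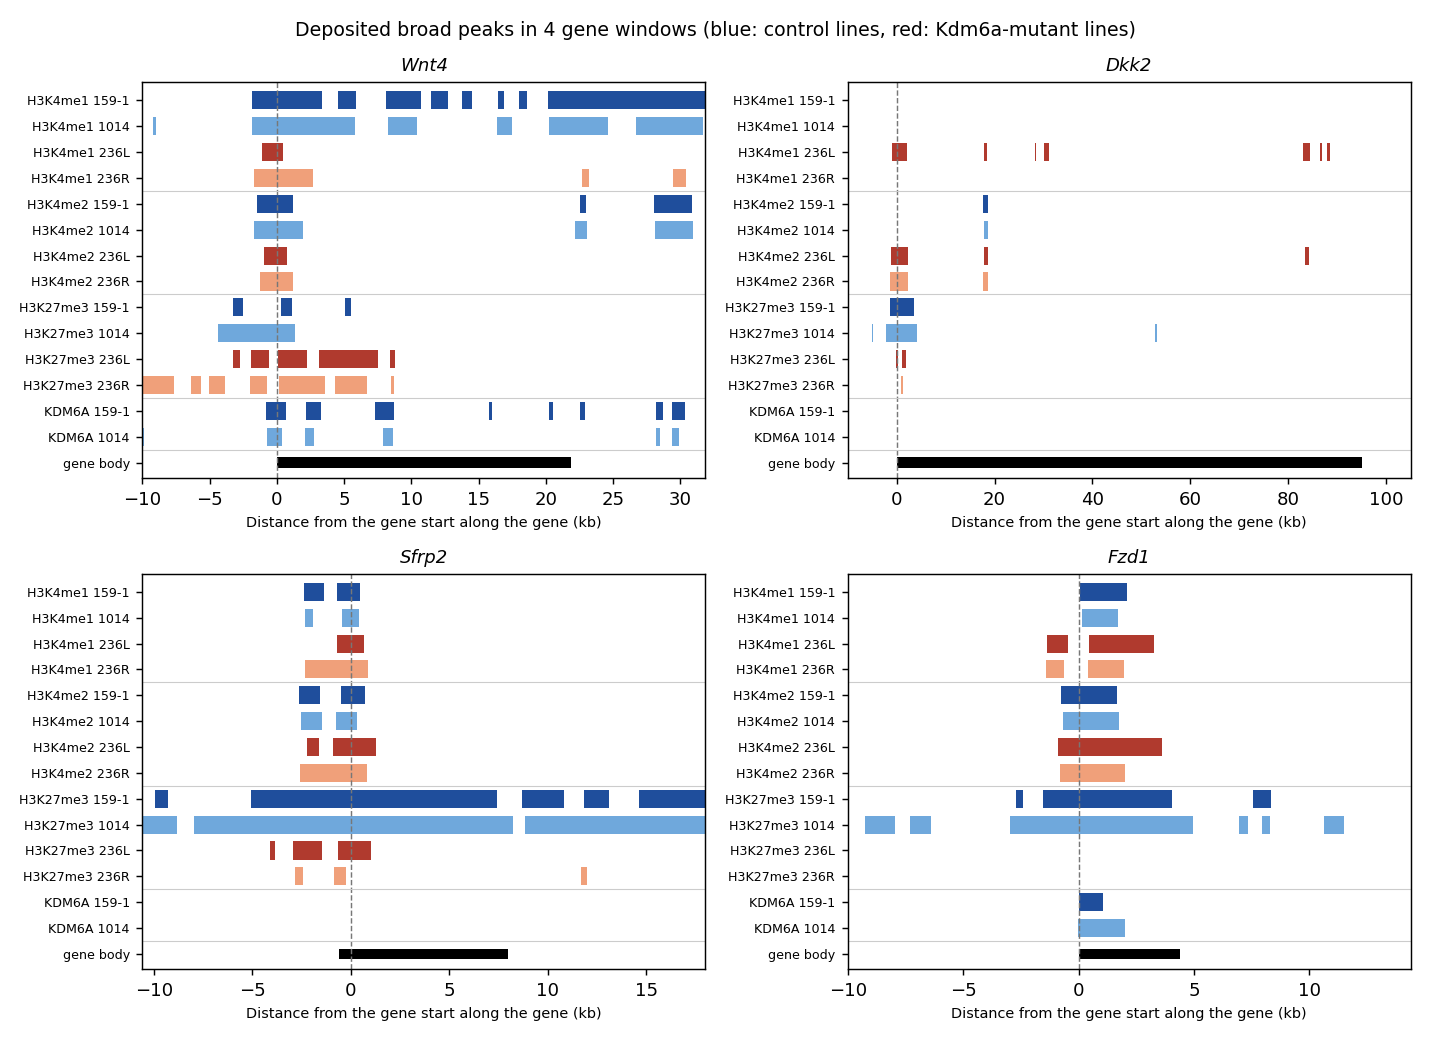
Peaks of each library (rows, blue for control and red for Kdm6a-mutant lines) along the windows of Wnt4, Dkk2, Sfrp2 and Fzd1, with distance from the gene start in kb on the horizontal axis and the gene body as a black bar. The red H3K4me1 rows of Wnt4 are empty over most of the gene, the red H3K4me2 rows of Dkk2 have a peak at the start that the blue ones lack, and the red H3K27me3 rows of Fzd1 are empty.

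The 4 ligands with less H3K27me3 still had some of it in both mutant lines. Wnt2, a ligand of the lung mesenchyme, had 11.4, 26.4, 3.41 and 2.95 kb in 159-1, 1014, 236L and 236R. Wnt7b, a ligand of the lung epithelium, had 27.9, 47.3, 16.9 and 16.2 kb. Wnt6 and its neighbour Wnt10a, whose windows share 13.3 kb, had 18.3, 33.2, 13.0 and 11.3 kb and 19.5, 31.0, 17.1 and 13.8 kb. At these 4 genes the control lines lay further from each other than the nearer control line from the nearer mutant line. Without 159-1, 24 members rather than 12 had less H3K27me3 (16.9% of all genes), and 1014, the control line then left, has the longest list, and without 236L the count was 13.

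Wnt3 and Wnt4 went the other way, with more H3K27me3 in mutant lines. Wnt4 (chr4:137277635-137299501), a ligand of kidney and gonad development, had 2.06 kb in 159-1, 5.71 kb in 1014, 8.75 kb in 236L and 11.5 kb in 236R. In the same window H3K4me1 was 23.9, 20.4, 1.56 and 5.81 kb, and H3K4me2 6.05, 7.36, 1.70 and 2.44 kb. All of the mutant H3K4me2 was 1 peak over the gene start, chr4:137276696-137278397 in 236L and chr4:137276386-137278820 in 236R. Control lines also had peaks beyond the end of the gene, the wider one at chr4:137305663-137308547 in 159-1. KDM6A peaks covered the Wnt4 start in both control lines, and 2 narrower ones per line covered parts of that downstream stretch. Wnt4 was the only member called in all 3 marks, with less H3K4me1, less H3K4me2 and more H3K27me3, against 0.0822% of all genes (18 genes). Its H3K4me1 call held under all 9 other settings tried and its H3K27me3 call under 5 of 10. In both counts 4 settings leave out a line, which can only widen a gap, and so could not lose a call. The H3K27me3 call was lost at 50 kb flanks, around gene ends and at a -log10 q of at least 3. It was also lost at a separation of 5 kb and at equal list length.

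Wnt3 (chr11:103774175-103818021), needed for the body axis of the embryo, had no H3K27me3 in the control lines, whereas 236L had 19.3 kb and 236R 2.73 kb. The 236R value was 1 peak at the gene start, chr11:103772225-103774953, of which 2.34 kb lay inside H3K4me2 peaks. With H3K27me3 inside H3K4me2 peaks left out, Wnt3 was no longer called and Wnt4 still was, an alternative chosen after the data were seen. H3K4me1 at Wnt3 was 19.6, 23.3, 2.30 and 12.6 kb. Wnt3 and Wnt4 were the 2 members with less H3K4me1 and more H3K27me3, against 0.16% of all genes. Without 1014, 4 members rather than 2 had more H3K27me3, Wnt8b and Wnt9a being added. The 2 calls fell away at a -log10 q of at least 3, where no member had more.

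H3K4me1 differed at 11 members, 7 of them ligands. In mutant lines 7 members had less, against 7.45% of all genes, and 4 had more, against 5.3%. The ligands with less were Wnt3, Wnt4, Wnt7a and Wnt11. Wnt7a had 11.7, 12.3, 1.08 and 7.65 kb and Wnt11, a noncanonical ligand, 13.3, 13.9, 5.51 and 8.52 kb. The control lines agreed within 1 kb at both genes, while 236L lay far below 236R. The other members with less were the receptor Fzd6 (4.79, 7.91, 0.826 and 1.33 kb), the antagonist Wif1 (5.95, 6.18, 1.70 and 2.66 kb) and Tcf7 (8.50, 10.6, 2.10 and 5.76 kb), a T-cell factor that binds DNA with beta-catenin. Within 2.5 kb of the gene ends the direction turned at these 3 genes, with mutant means 0.845, 0.961 and 0.687 kb above the control means, and Wnt4 alone of the 7 had less there. The count was 3 at a -log10 q of at least 3 (Wnt3, Wnt4 and Wnt11) and 2 at a separation of 5 kb (Wnt3 and Wnt4). At Fzd6 H3K4me2 was lower too, at 5.13, 4.58, 1.53 and 1.44 kb. There the mutant lines had the peak at the gene start, chr15:39005605-39007132 in 236L, and lacked one inside the gene, chr15:39018616-39021120 in 159-1. Fzd6 and Wnt4 were the 2 members with less H3K4me2, against 6.37% of all genes.

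The members with more H3K4me1 were Wnt5b, Wnt6, Wnt8b and Fzd8. Wnt8b had none in the control lines and 3.01 kb (236L) and 2.99 kb (236R) in the mutant lines, mainly in a peak near the end of the gene (chr19:44509536-44512525 in 236R) where H3K4me2 peaks lay in 159-1 and both mutant lines. Fzd8 had 0.852, 0.585, 5.20 and 3.79 kb, with an H3K4me2 length of 4.19 to 4.49 kb in the 4 lines. Wnt6 had 11.2, 9.53, 15.1 and 14.3 kb, and its difference was -0.016 kb around the gene ends. Wnt5b had 7.93, 9.33, 29.8 and 11.9 kb, and the distance between 236L and 236R was larger than that between 236R and the control lines. The count of members with less H3K4me1 was 11 without 159-1 and 15 without 236R, so that 236L taken by itself lay below both control lines by at least 2 kb at 15 members. The low neuroendocrine marker sum of 236L is given above, and its part in these values was not tested. Macrophage markers were high in 236L, at 191.5 kb of H3K4me1 against 49.7, 51.0 and 34.6 kb in 159-1, 1014 and 236R, and their part in the Wnt5b value was not tested. For H3K4me2 the counts without 1 line ran from 1 to 4 members with more (2 without 159-1, 3 without 236L, 4 without 236R) and from 2 to 4 with less (4 without 1014). With lists of equal length 3 members had more H3K4me2 and 2 had less, instead of 1 and 2.

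**Figure D4:**
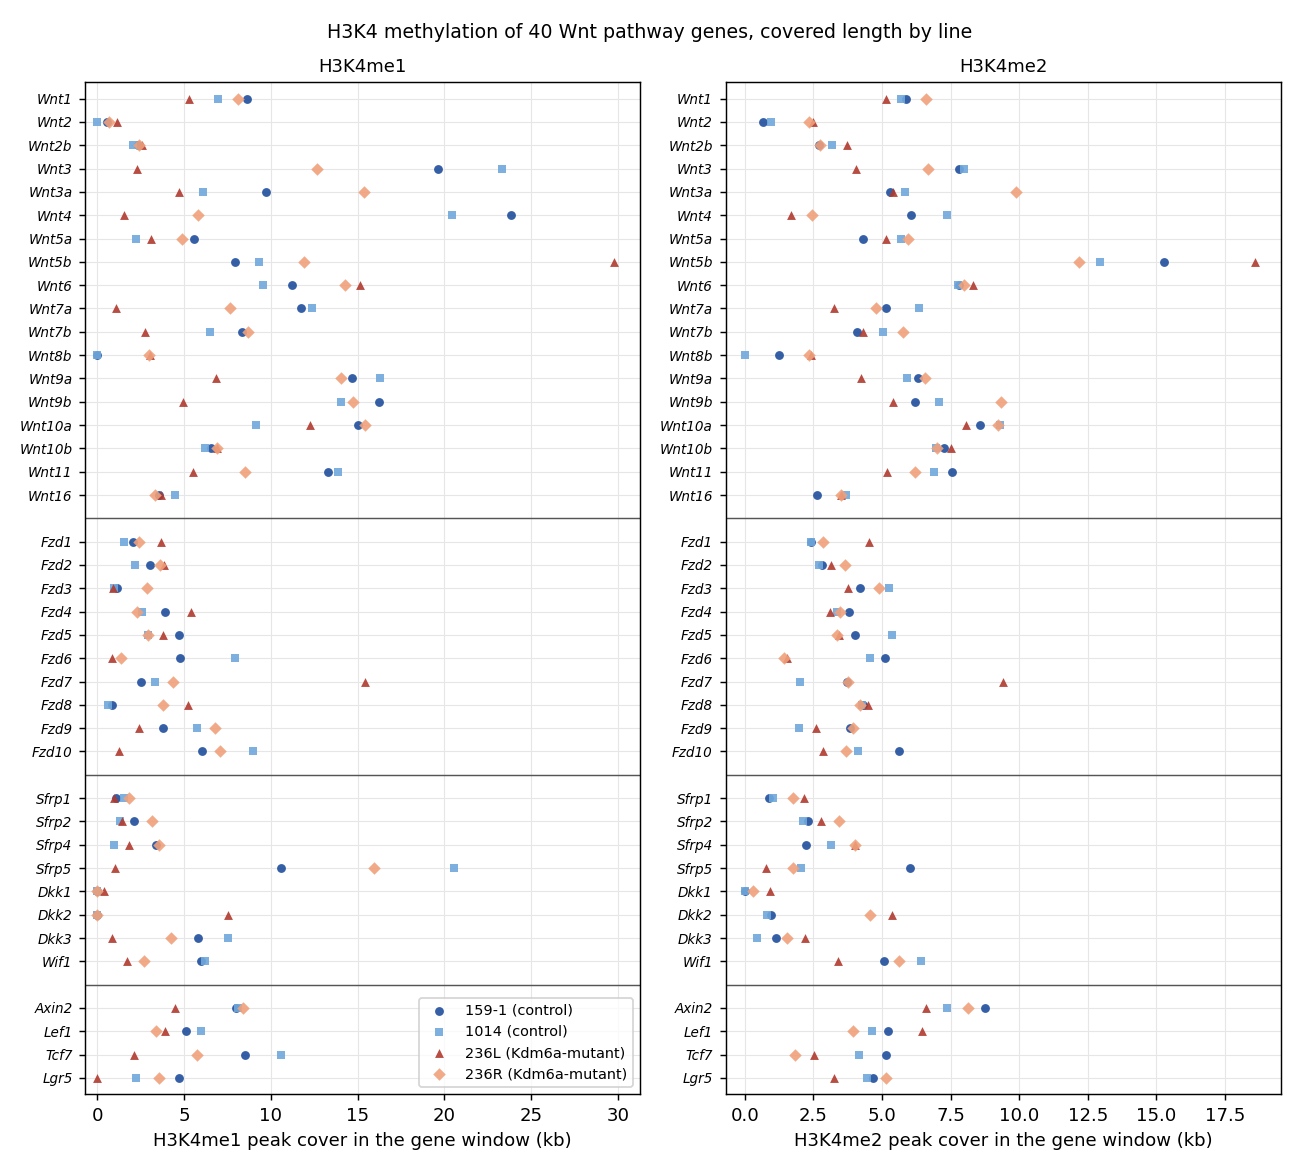
Length in kb of each gene window covered by H3K4me1 peaks (left) and H3K4me2 peaks (right) for 40 genes in the order of the H3K27me3 plot, with 1 symbol per line. Wnt4 has blue symbols at 20.4 and 23.9 kb of H3K4me1 and red ones at 1.56 and 5.81 kb, Wnt5b and Fzd7 have a lone 236L symbol at the right, and the H3K4me2 symbols of most genes lie close together.

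The 18 members called in no mark were 8 ligands, 5 receptors, 4 antagonists and Axin2. Wnt1 and Wnt10b, neighbours on chromosome 15, had H3K4me2 lengths of 5.14 to 6.60 kb and 6.97 to 7.51 kb over the 4 lines, and the groups overlapped at both. The H3K27me3 of Wnt10b was 9.66 kb in 159-1, 22.8 kb in 1014, 4.60 kb in 236L and 8.46 kb in 236R, with the mutant lines below the control lines by 1.20 kb at the nearest. Wnt3a, a canonical ligand, had 31.3, 54.2, 26.0 and 31.6 kb, and its 236R value lay between the control lines. Wnt9a and Wnt9b, which sit beside Wnt3a and Wnt3, had 0.839, 8.49, 5.63 and 3.67 kb and 14.0, 30.0, 18.9 and 13.7 kb, so their groups overlapped. Wnt2b had 9.27 kb in 1014 and 0.396 to 0.623 kb in the other 3 lines. Wnt16 had 1.58 kb in 236L and none elsewhere.

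Fzd4 and Fzd5, the receptors known from blood vessels and the gut, had no H3K27me3, and their H3K4me2 ran from 3.12 to 3.79 kb and from 3.38 to 5.35 kb over the 4 lines. Fzd9 had little H3K27me3, at 0, 1.75, 3.57 and 1.23 kb. Fzd10 had 6.02, 8.97, 1.25 and 7.06 kb of H3K4me1, low in 236L alone. Among antagonists, Dkk1 had 0.414, 12.7, 1.55 and 5.83 kb of H3K27me3 and Sfrp4 2.46, 9.12, 0 and 3.93 kb, and at both genes a mutant line lay between the control lines. Sfrp5 had 4.87 kb in 236L and none elsewhere. Dkk3 had 5.80, 7.53, 0.856 and 4.26 kb of H3K4me1, lower in both mutant lines but by less than 2 kb for 236R. Axin2 had 7.97, 8.08, 4.49 and 8.38 kb of H3K4me1 and 8.75, 7.39, 6.59 and 8.14 kb of H3K4me2, again low in 236L. At Fzd10, Sfrp5 and Axin2 the H3K4me1 value of 236L was the lowest of the 4 lines, while 236R lay within or near the control range.

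Other genes of the pathway, 38 in a list of coreceptors, secretion factors, R-spondins with their regulators, further antagonists and intracellular components, were compared by the same rule. Their windows are longer, with a median of 70.0 kb against 37.2 kb over all genes, while the rule asks for the same 2 kb at any length. The part of window length in the counts was not tested. For H3K4me1 11 had less (7.45% of all genes) and 3 more (5.3%), for H3K4me2 8 had less (6.37%) and 1 more (1.36%), and for H3K27me3 5 had less (6.43%) and none more (0.425%). The coreceptors accounted for 4 of the 11 and 3 of the 8. Ror2, a receptor tyrosine kinase for Wnt5a, had 36.0, 53.2, 2.59 and 14.2 kb of H3K4me1 and 13.2, 12.5, 4.12 and 4.50 kb of H3K4me2. Kremen1, which works with Dkk proteins, had 23.5, 25.9, 4.31 and 8.81 kb of H3K4me1. Znrf3, a ubiquitin ligase that removes Frizzled receptors from the surface, had 16.3, 17.2, 5.80 and 7.01 kb of H3K4me2. Gsk3b, a kinase of the complex that degrades beta-catenin, had 21.1, 24.1, 13.6 and 10.9 kb. Its paralog Gsk3a had more H3K4me1 (5.65, 5.69, 10.9 and 9.79 kb), as did Dvl2, which relays the receptor signal (7.28, 5.58, 14.9 and 12.7 kb).

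The TCF genes of this list parted. Tcf7l1, mainly a repressor, had 72.1, 68.9, 6.08 and 53.4 kb of H3K4me1. Tcf7l2 had 0.470, 2.10, 69.4 and 4.94 kb of H3K4me1 and 3.23, 2.34, 29.0 and 5.33 kb of H3K4me2. In both genes 236L was far from the other 3 lines, and 236R lay much nearer to the control lines. The 5 genes with less H3K27me3 were Rnf43, Rspo4, Frzb, Rspo1 and Bcl9. Rnf43, the partner of Znrf3, had 37.3, 75.5, 0 and 20.5 kb. Rspo4, an R-spondin, had 16.2, 33.7, 2.34 and 1.29 kb, and Frzb, a further secreted Frizzled-related protein, 9.59, 15.1, 0.881 and 2.86 kb. For both of the latter the mutant lines lay close together and well below the control lines, as at Sfrp1 and Sfrp2.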

How the data were processed

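The series holds 24 samples, 14 ChIP-seq libraries with a peak list and 10 inputs, which were not analysed here. The submitters' processing notes name mm10 as the genome build, Bowtie2 2.4.2 (an aligner) and MACS3 3.0.0a7 (a peak caller). The handling of duplicate reads is not given in the sources used here, nor are the control track and the threshold. A deposited list is of 1 library and gives, for each broad peak, its position, a fold enrichment (a linear ratio by the authors), the authors' −log10 p-value and −log10 q-value, and a display score deposited with them. Folds and q-values served only to filter within a list, and no read counts or depths were at hand, so peak heights were not compared. Samples were grouped by the cell line in the labels.

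Peaks of a library on chromosomes 1 to 19, X and Y were merged, and the covered length was taken in each gene window (body with 10 kb on each side, NCBI gene table of GRCm38.p6) with Python 3.11.15, numpy 2.4.6 and pandas 2.3.3. The code recovered known lengths and calls when tested on simulated data. All 40 members are accounted for. Values of every line are given for members called in a mark, for the highest and lowest member of each role in control lines, and for at most 3 called genes per mark and direction among 38 other pathway genes. Further values were chosen after they were seen. The members, the lists and the rules were chosen with earlier results of these data known. Alternatives were 50 kb flanks, 2.5 kb around gene ends, a −log10 q of at least 3, a 5 kb separation, equal list length, exchanged H3K4me2 control lists, merged neighbours and leaving out each line.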

Additional observations from a re-analysis of the deposited data

How the results depend on the processing

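With 2 lines a group no single difference can pass 0.05, depth is unknown, and list length limits H3K27me3 most. Main counts of members with more and less in mutant lines were 4 and 7 for H3K4me1, 1 and 2 for H3K4me2 and 2 and 12 for H3K27me3. At 50 kb flanks H3K4me2 gave 2 and 5 and H3K27me3 more gave 0. Around gene ends H3K4me1 gave 2 and 1, H3K4me2 2 and 0 and H3K27me3 more 1. There Wnt2, Wnt6, Wnt7b, Wnt10a and Lgr5 lost their call of less H3K27me3. At a −log10 q of at least 3, H3K4me1 less gave 3 and H3K27me3 gave 0 and 5. At a 5 kb separation H3K4me1 gave 0 and 2, H3K4me2 0 and 0, and H3K27me3 more 0. Dkk2, Fzd2, Fzd7 and Wnt10a lost their call of less H3K27me3 at this separation. At equal list length H3K4me2 more gave 3 and H3K27me3 4 and 6. Outside H3K4me2 peaks, an alternative chosen after seeing the data, H3K27me3 gave 1 and 12. Leaving out 1 line gave 4 to 6 and 7 to 15 for H3K4me1, 1 to 4 and 2 to 4 for H3K4me2, and 2 to 4 and 12 to 24 for H3K27me3. Under the rule these counts could not fall below the main ones, because leaving out a line can only widen a gap. Averaged over the control lines, the ligand minus receptor gap kept its sign for H3K27me3 (19.3 points, 5.92 to 32.7 without 1 line, 4.05 at equal list length) and H3K4me1 (7.64, 5.81 to 9.47 without 1 line) under every setting run. For H3K27me3 the 2 control lines differed in sign at equal list length and at a −log10 q of at least 3. For H3K4me2 the mean gap was -0.366, turned to 3.42 at 50 kb flanks, was -8.52 around gene ends, and ran from -1.60 to 0.873 without 1 line. For KDM6A it was -1.43, turned to 0.875 at 50 kb flanks, was -6.11 around gene ends, -0.809 at the q limit and -2.39 at equal list length, and ran from -1.84 to -1.03 without 1 line. KDM6A cover within H3K4me2 peaks went from 78.6% to 82.4% with the H3K4me2 lists exchanged and 86.7% at the q limit. Of 28 calls at single members, 201 results under alternatives kept the call, 61 lost it and 4 reversed, all in H3K4me1 around gene ends: Wnt6 (-0.016 kb, mutant minus control mean), Fzd6 (0.845 kb), Wif1 (0.961 kb) and Tcf7 (0.687 kb). The H3K27me3 calls of Fzd1, Sfrp1 and Lef1 held in 10 of 10 alternatives and that of Sfrp2 in 9 of 10. In each such count, and in the 201 kept results, the 4 alternatives that leave out a line could not lose a call. They say nothing about how firm a call is. The cause of these shifts was not tested. No paired analysis was possible because the lines of the 2 genotypes carry no shared replicate numbers.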

Other observations

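Ranked by covered share across the 40 genes, the control lines resembled each other most in H3K4me1, with a Spearman correlation of 0.931 between 159-1 and 1014. The same value was 0.837 for 159-1 with 236R and 0.372 for 159-1 with 236L. For H3K27me3 the values were 0.865, 0.696 and 0.479. Over all 21887 genes the 236L values were 0.661 for H3K4me1 and 0.36 for H3K27me3. The points are genes of the same libraries, which share list length, so these are descriptions with no p-value.

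Receptor and antagonist starts are set side by side here, with no test. All 6 receptor starts with a promoter entry lay in H3K4me2 peaks in every line, and KDM6A covered 4 of them in 159-1 and all 6 in 1014. Of 5 antagonist starts, H3K4me2 covered 2 in each control line, 4 in 236L and 3 in 236R, and KDM6A covered 1 in each control line, that of Wif1. The motifs CTTTGAT and CTTTGAA, bound by TCF and LEF proteins, were searched on both strands of the 250 bases before each start. CTTTGAT was found before 2 of 36 member starts (5.56%), those of Wnt11 and a start inside Wnt5b, and before 2.82% of all starts. CTTTGAA was found before 1 of 36 (2.78%), that of Dkk1, and before 4.05% of all starts. A match says only that these letters are present.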
